A study of Mus musculus with 6 samples.

Results

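The genes described here are the lysosome and autophagy genes of mouse hematopoietic stem cells (HSCs), the rare marrow cells that renew all blood lineages. They were taken from the deposited count table by name, not by value. The set holds every symbol that begins with Atp6v, Atg or Lamp and a number, and every cathepsin named by Cts and 1 letter other than Ctsg and Ctsl. Tfeb, Tfe3, Ulk1, Becn1, Sqstm1, Map1lc3a, Map1lc3b, Gabarap and Gabarapl1 complete it. In all, 69 of the 24091 genes in the table were members, and 55 of them had enough counts to be tested.

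Lysosomes are acidic vesicles that digest proteins, lipids and sugars. The V-ATPase pumps protons into them, cathepsins cut proteins there, and LAMP proteins coat their membrane. In autophagy a membrane sheet is started by the ULK1 and Beclin 1 complexes, grows around cytoplasm while ATG enzymes attach ATG8 proteins to it, and then fuses with the lysosome. TFEB and TFE3 are transcription factors that switch on many of these genes. In HSCs, autophagy is known to clear mitochondria and to help maintain the stem cells in old animals.

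RNA was measured by RNA-seq in HSCs sorted as negative for lineage markers and CD48 and positive for Sca-1, c-Kit and CD150. The 3 aged libraries, aged 1 to aged 3, were from animals 20 months old, and the 3 young libraries, young 4 to young 6, from animals 2 months old. All samples are labelled wt, and no treatment or allele is named. Cells of 4 aged and of 30 young mice were pooled, with no statement of whether this was for each sample. If it was, the p-values rest on differences among pools, part of which may be technical. If the libraries of an age came from a single pool, the p-values rest on technical differences alone.

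Total counts ran from 16452829 in young 4 to 21918658 in young 6. Levels are given as CPM, counts relative to library size after scaling between libraries. RNA of the genes behind the sort was present: Kit stood at 862 to 1033 CPM in aged and 320 to 868 CPM in young libraries, and Slamf1, which encodes CD150, at 87.6 to 121 CPM in aged and 62.3 to 66.2 CPM in young libraries. The aged libraries of Slamf1 all lay above the young ones, without a call (fold 1.54, edgeR adjusted p 0.0891). The groups of Kit overlapped, while Ly6a and Cd48 were called. Ly6a, for Sca-1, had 76.8 to 177 CPM in aged and 28.9 to 46.5 CPM in young libraries (fold 3.04, edgeR adjusted p 0.0435), and Cd48, which the gate excludes, had 0.511 to 2.54 CPM in aged and 8.59 to 14.5 CPM in young libraries (fold 0.130, edgeR adjusted p 0.0345). Both calls were lost with aged 2, aged 3, young 5 or young 6 out, and that of Ly6a also with aged 1 out, at edgeR adjusted p-values from 0.0710 to 0.109. With aged 1 out the fold of Cd48 was 0.0760. The part of these differences in the member results was not tested. Csf1r, a receptor that marks macrophages, did not exceed 1.03 CPM in any library. Young 4 stood apart from the others: Actb took 4.06% of its counts, against 0.555% to 1.36% in the other 5 libraries.

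Aged HSCs had more RNA of Lamp2, a lysosome membrane protein, and of Ctsw, a cysteine cathepsin known from NK cells and cytotoxic T cells. Lamp2 was 1.75-fold and Ctsw 3.09-fold the young level. No member was called lower, and none of the V-ATPase, ATG or ATG8 genes passed the test. Among the genes that did not pass, most cathepsins lay above the young libraries in each aged library, while V-ATPase subunits were spread around no difference. Since the RNA is of pooled cells, more RNA per cell cannot be told apart from more cells of a kind that expresses the gene.

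By edgeR's quasi-likelihood test with Benjamini-Hochberg adjustment over all 13413 genes tested, 2 of 55 members were called higher at an adjusted p under 0.05, and 0 were called lower. That is 3.64% of the members called higher, against 4.26% of all genes tested, and none called lower, against 1.50% of all genes, so the share called higher was near the background. At an unadjusted p under 0.05, 13 members (23.6%) were higher and 0 were lower, against 13.9% and 11.1% of all genes. All 3 aged libraries lay above all 3 young libraries for 21 members (38.2%) and below them for 3 members, Atg3, Becn1 and Atg101 (5.45%). Over all genes tested these shares were 19.0% and 17.6%. The median log2 fold change, aged over young, was 0.16 over the members and 0.04 over all genes.

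Other fits called more members. DESeq2 called 7 higher (12.7%, against 9.36% of all genes), adding Ctsb, Ctsf, Ctsh, Gabarapl1 and Ulk1, and upper-quartile scaling called 4 higher (7.27%, against 4.92%), adding Ctsh and Ulk1. The weighted limma-voom fit called 14 higher (25.5%, against 17.3%) and 2 lower, Ctse and Ctss (3.64%, against 13.2%). Over all genes 74.0% of the calls were higher in aged cells, and 50.3% with a trend in GC content and length removed, a fit in which Ctsw and Ctsh were the members called.

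**Figure D1:**
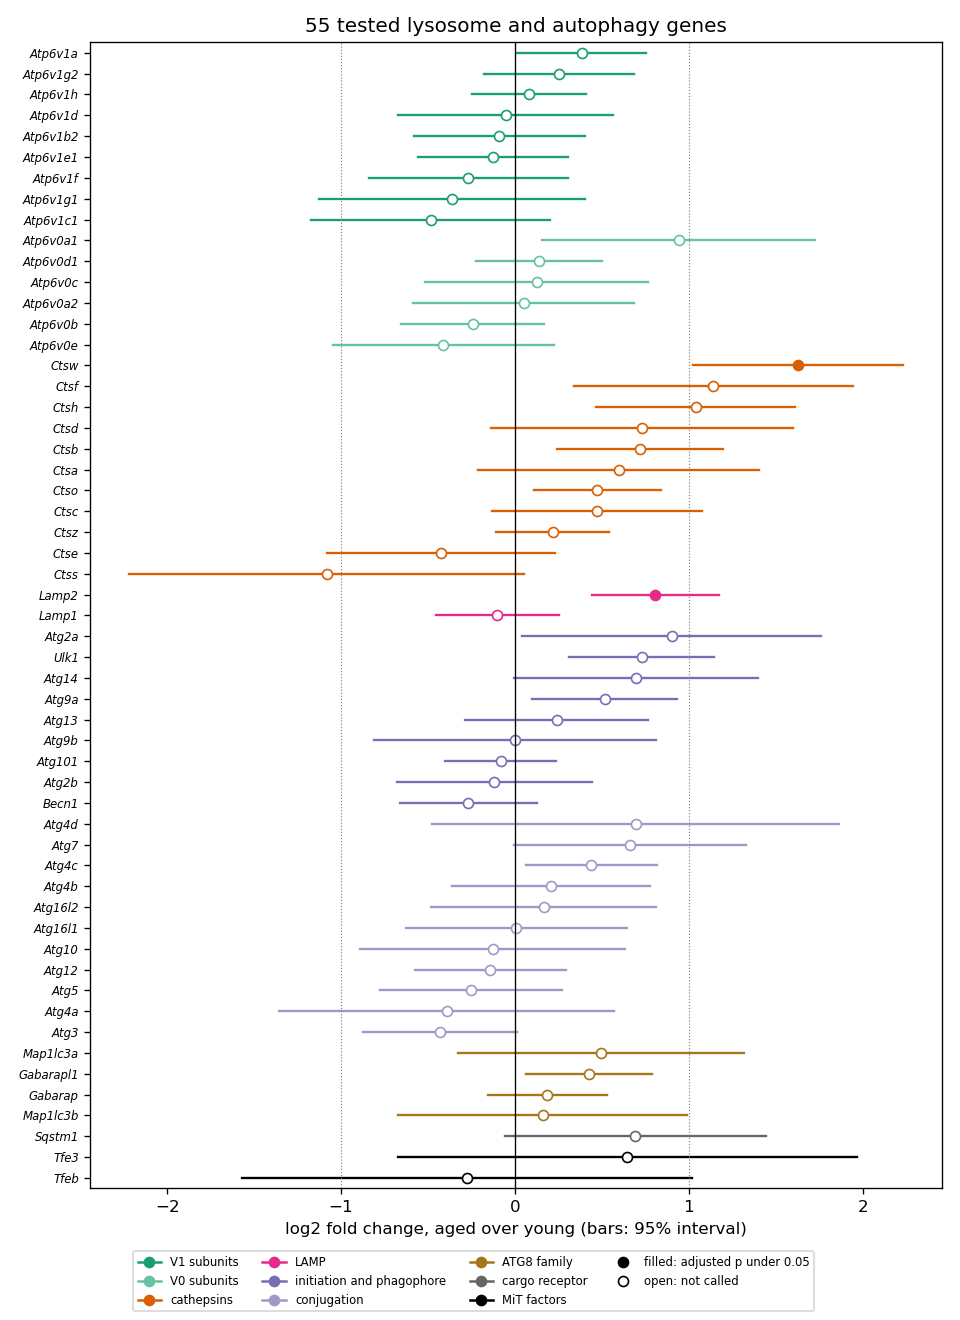
Log2 fold changes, aged over young (horizontal axis), of the 55 tested members, in rows by role and colour, with 95% intervals as bars. Filled points are the genes called at an adjusted p under 0.05. Lamp2 and Ctsw alone are filled, and 9 of the 11 cathepsins lie right of 0.

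The test left wide intervals for many genes. For 31 of the 55 members the 95% interval of the fold change lay within 2-fold in either direction (56.4%, against 44.6% of all genes tested). An absent call for the other members does not bound their change at 2-fold.

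Lamp2 had 370, 337 and 338 CPM in aged 1, aged 2 and aged 3, against 183, 208 and 206 CPM in young 4, young 5 and young 6. No aged library overlapped a young one, and young 4 was lowest. Aged cells averaged 348 ± 18.8 CPM and young cells 199 ± 13.6 CPM (SD, n = 3 each). The log2 fold change was 0.81 ± 0.16 (SE), a 1.75-fold difference with a 95% interval of 1.36 to 2.26 and an edgeR adjusted p of 0.0361. The gene lies on chrX:38401357-38456460 of mm10, on the minus strand. LAMP-2A, 1 of its splice forms, is the receptor of chaperone-mediated autophagy, but counts per gene do not separate the forms.

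The call of Lamp2 rested on most of the libraries. The edgeR adjusted p became 0.0888 (aged 1 out), 0.120 (aged 2 out), 0.134 (aged 3 out), 0.112 (young 5 out) and 0.102 (young 6 out). In these fits the fold stayed between 1.69 and 1.78, and 74 to 282 of all genes were called, against 772 with all libraries. Without young 4 the edgeR adjusted p was 0.0233, at a fold of 1.66. With a trend in GC content and length removed, it was 0.0652 at a log2 fold change of 0.82.

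Lamp1, the closest relative of Lamp2 and also a lysosome coat protein, had 134, 139 and 152 CPM in aged 1 to aged 3, against 139, 161 and 157 CPM in young 4 to young 6. The groups overlapped. Its fold was 0.931, with a 95% interval of 0.729 to 1.19 and an edgeR adjusted p of 0.678. Of the summed level per kb of both genes, Lamp2 made up 39.0%, 36.1% and 34.1% in aged 1 to aged 3, against 23.5%, 23.1% and 23.4% in young 4 to young 6. This share needs no scaling between libraries, and the aged libraries all lay above the young ones. The difference between the changes of both genes was not tested. Lamp3, best known from dendritic cells, and Lamp5, from brain, were not tested, with no more than 5 counts in any library.

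**Figure D2:**
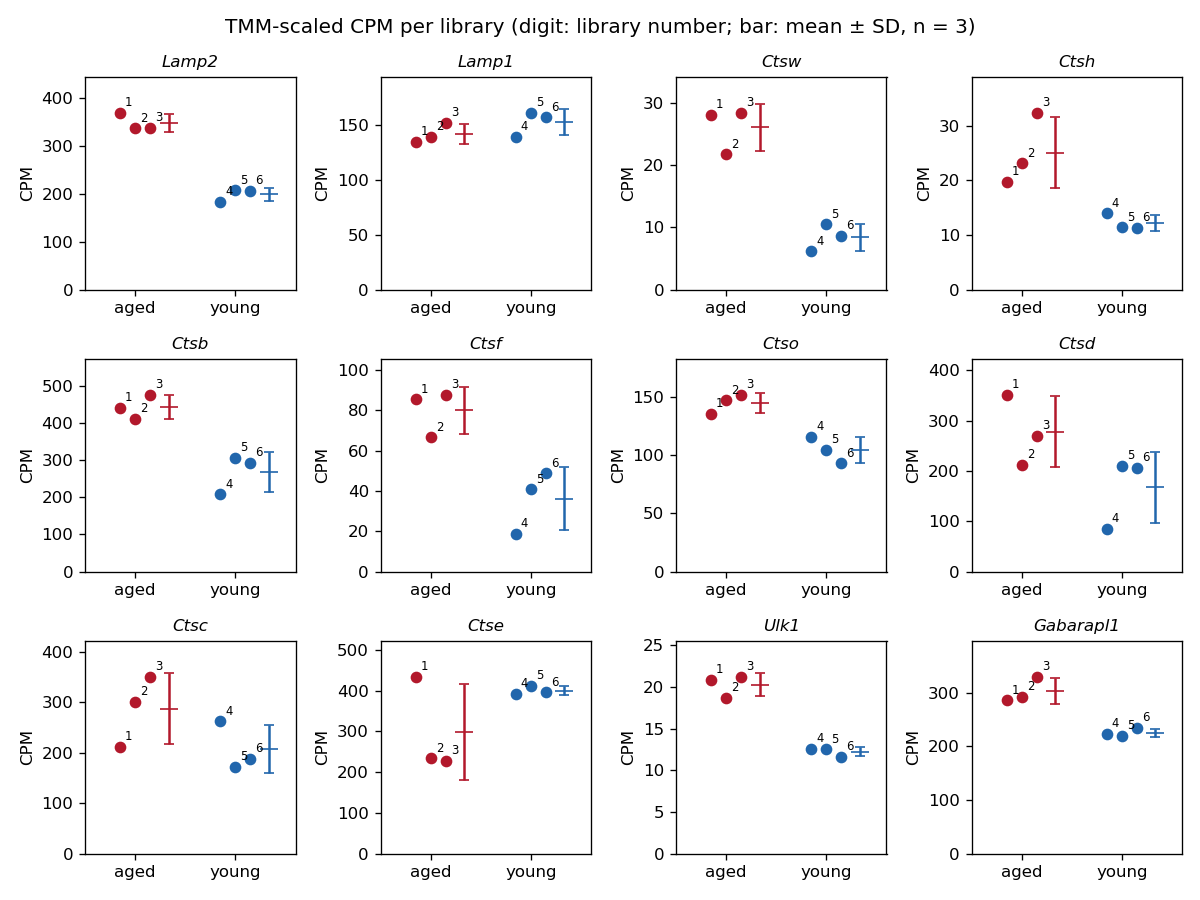
CPM (vertical axis, from 0) of 12 members in the 3 aged and 3 young libraries. Digits give the library number, and bars the mean ± SD (n = 3). For Lamp2, Ctsw, Ctsh, Ctsb, Ctsf, Ctso and Ulk1 all aged points lie above all young points, while those of Lamp1 and Ctse overlap.

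The promoters of Lamp2 and Lamp1 are printed because these relatives differed in their call, and that of Ctsd because it holds the longer form of the motif searched. The sequences are from RefSeq on GRCm38.p6, run 5′ to 3′ along the gene from 250 bases before to 50 after its start, and have CACGTG in capitals, the E-box at the core of the element that TFEB and TFE3 bind. The Lamp2 window is chrX:38456411-38456710 on the minus strand and holds 0 of them. The Lamp1 window, chr8:13158911-13159210 on the plus strand, holds 4. The Ctsd window, chr7:142387778-142388077 on the minus strand, holds 2.
Lamp2 promoter: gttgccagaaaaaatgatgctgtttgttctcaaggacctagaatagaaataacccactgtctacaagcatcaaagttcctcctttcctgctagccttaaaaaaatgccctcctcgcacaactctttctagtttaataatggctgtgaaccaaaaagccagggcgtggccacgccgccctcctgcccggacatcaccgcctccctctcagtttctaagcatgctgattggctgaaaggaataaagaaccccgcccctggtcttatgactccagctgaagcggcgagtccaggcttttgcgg
Lamp1 promoter: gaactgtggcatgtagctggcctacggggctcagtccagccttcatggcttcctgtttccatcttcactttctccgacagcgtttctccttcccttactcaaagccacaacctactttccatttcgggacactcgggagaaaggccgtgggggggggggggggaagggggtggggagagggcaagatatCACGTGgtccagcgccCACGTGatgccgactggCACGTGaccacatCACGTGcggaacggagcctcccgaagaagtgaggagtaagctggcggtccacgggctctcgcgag
Ctsd promoter: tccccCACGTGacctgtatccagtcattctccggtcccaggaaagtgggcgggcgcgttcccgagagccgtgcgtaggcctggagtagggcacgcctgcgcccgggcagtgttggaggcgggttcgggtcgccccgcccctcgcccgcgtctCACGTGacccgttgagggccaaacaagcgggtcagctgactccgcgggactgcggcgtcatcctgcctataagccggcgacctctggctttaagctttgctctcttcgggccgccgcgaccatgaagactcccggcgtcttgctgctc

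Over the set, 54 members had a promoter in the RefSeq table, and 12 of these (22.2%) held CACGTG there. Of all 27025 genes with a promoter in it, expressed or not, 8.09% held CACGTG. The longer TCACGTGA stood in 6 members (11.1%), Atg3, Atp6v0d1, Atp6v0e, Atp6v1a, Ctsa and Ctsd, against 1.12% of all these genes. The full CLEAR element, the same letters with G before and C after, stood in 0 of 54, against 0.370% of all. Each motif reads the same on both strands, and each shorter motif lies inside the longer ones. Among the 41 tested members with a window, the median log2 fold change was 0.26 for the 12 with CACGTG and 0.22 for the 29 without. Ctsw had no entry in this table.

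The cathepsins were the group whose levels lay most often above the young libraries. Of 16 cathepsin genes 11 were tested and 1, Ctsw, was called higher (9.09%, against 4.26% of all genes tested). The other 10 did not pass. Fold changes were above 1 for 9 of the 11, and for 8 all 3 aged libraries lay above all 3 young ones, against 19.0% of all genes tested. Their median log2 fold change was 0.60 and stayed between 0.47 and 0.79 under every alternative fit, those without a library included.

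Ctsw had 28.1, 21.7 and 28.5 CPM in aged 1 to aged 3, against 6.12, 10.5 and 8.64 CPM in young 4 to young 6. The groups lay far apart. Aged libraries averaged 26.1 ± 3.79 CPM and young libraries 8.41 ± 2.18 CPM (SD, n = 3 each), a log2 fold change of 1.63 ± 0.26 (SE) and a fold of 3.09 with a 95% interval of 2.03 to 4.70. The edgeR adjusted p was 0.0223. Leaving out a library changed this to 0.0575 (aged 1 out), 0.0609 (aged 2 out), 0.0916 (aged 3 out), 0.0685 (young 5 out) and 0.0828 (young 6 out), so the call was lost each time. It held at 0.0206 with young 4 out.

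Ctsw lies on chr19:5465043-5468507 of mm10, on the minus strand, and shares 10 bases with Fibp on the other strand. Fibp had 47.4, 29.4 and 30.8 CPM in aged 1 to aged 3, against 16.0, 32.3 and 32.0 CPM in young 4 to young 6, which overlap. Markers of T and NK cells were read beside Ctsw. Of 7 such genes 5 stayed under 1 CPM in every library, among them Cd3e, Cd3g, Ncr1 and Gzma, each at 0.103 CPM or less. The summed level of the 7 was 151 to 226 CPM in aged and 104 to 193 CPM in young libraries. Nearly all of it was Klrb1c and Nkg7, which differed in opposite directions. Klrb1c, an NK receptor gene, was called higher, with 117 to 209 CPM in aged and 4.98 to 9.70 CPM in young libraries. Nkg7, a granule gene, was called lower, with 17.5 to 45.7 CPM in aged and 98.9 to 183 CPM in young libraries. The part of these markers in the Ctsw level was not tested.

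Ctsh, an aminopeptidase among the cathepsins, had 19.8, 23.1 and 32.5 CPM in aged 1 to aged 3, against 14.0, 11.4 and 11.3 CPM in young 4 to young 6. Its groups did not overlap, and it came closest to a call of the genes that missed it. The fold was 2.06 (95% interval 1.38 to 3.06) with an edgeR adjusted p of 0.0541. Ctsh passed with upper-quartile scaling (adjusted p 0.0432), with the GC and length trend removed (0.0253) and without young 4 (0.0484).

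Ctsb, an abundant lysosomal cysteine protease, had 441, 411 and 477 CPM in aged 1 to aged 3, against 208, 306 and 294 CPM in young 4 to young 6. Ctsf, another cysteine protease, had 85.4, 66.5 and 87.8 CPM in aged 1 to aged 3, against 18.8, 40.9 and 48.8 CPM in young 4 to young 6. For both genes all aged libraries lay above the young ones, and young 4 was lowest. The fold was 1.65 for Ctsb, with an edgeR adjusted p of 0.0852, and 2.20 for Ctsf, with one of 0.0983. Without young 4 both passed, with edgeR adjusted p-values of 0.0459 for Ctsb and 0.0413 for Ctsf, while their folds were smaller, 1.46 for Ctsb and 1.75 for Ctsf. Ctsb shares 773 bases with Fdft1 on the other strand, which stood at 35.9 to 53.1 CPM in aged and 32.3 to 35.9 CPM in young libraries.

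Ctso had 135, 147 and 152 CPM in aged 1 to aged 3, against 115, 105 and 92.7 CPM in young 4 to young 6, without overlap and with an edgeR adjusted p of 0.122. Ctsd, the main aspartic protease of lysosomes and the most abundant cathepsin per kb of gene, had 351, 211 and 270 CPM in aged 1 to aged 3, against 85.2, 210 and 207 CPM in young 4 to young 6. Aged 2 was level with young 5 and young 6, and only young 4 lay far below. Ctsa, a carboxypeptidase that protects lysosomal sialidase, showed the same layout, with 166 to 209 CPM in aged libraries, against 64.1 CPM in young 4 and 160 and 157 CPM in young 5 and young 6. Neither Ctsd nor Ctsa passed.

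Ctsz, a carboxypeptidase, had 119 to 130 CPM in aged and 105 to 109 CPM in young libraries, without overlap. Its fold of 1.16 had a 95% interval of 0.928 to 1.45. Ctsc, which activates the serine proteases of granules, overlapped, with 211, 300 and 351 CPM in aged 1 to aged 3, against 262, 172 and 188 CPM in young 4 to young 6.

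The 2 tested cathepsins with folds under 1 were Ctse and Ctss, and neither passed. Ctse, an aspartic protease of endosomes, had 435, 234 and 227 CPM in aged 1 to aged 3, against 392, 413 and 396 CPM in young 4 to young 6. Aged 1 was the highest of all 6 libraries, while aged 2 and aged 3 lay below every young library. Ctss, which processes the MHC class II invariant chain in antigen-presenting cells, had 9.35, 7.38 and 3.11 CPM in aged 1 to aged 3, against 21.5, 11.8 and 8.90 CPM in young 4 to young 6. Its groups overlapped, with a fold of 0.472 and an edgeR adjusted p of 0.216.

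Macrophages are rich in cathepsins, so their markers were set beside this group. The 12 macrophage and monocyte markers summed to 334 to 350 CPM in aged and 279 to 353 CPM in young libraries, most of it Lyz2, with 277 to 316 CPM in aged and 247 to 313 CPM in young libraries. Adgre1 did not exceed 1.91 CPM in any library. Of the 10 tested, Mertk and Itgam were called higher and none lower, against 4.26% higher and 1.50% lower of all genes tested. In each aged library Mrc1 (fold 0.462), Vcam1 (0.430), C1qb (0.680) and C1qc (0.636) lay below all young libraries, without a call. Over all genes tested 17.6% lay below in this way. The part of these markers in the cathepsin levels was not tested.

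Ctsj, Ctsm, Ctsq and Ctsr, members of a cathepsin cluster known from rodent placenta, and Ctsk, the collagen protease of osteoclasts, had 0 to 6 counts a library and were not tested. Ctsr had 0 counts in all 6 libraries, which allows a level of up to 3 counts, or 0.132 CPM in young 6 and 0.239 CPM in young 4. Such limits cover counting error only.

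The V-ATPase, the proton pump, had 0 calls among 15 tested subunit genes of 22, near the 4.26% higher and 1.50% lower of all genes. Its V1 part, the ATP-splitting head in the cytoplasm, had 9 tested genes with log2 fold changes from -0.48 to 0.38 and a median of -0.09, which turned to 0.09 with no scaling beyond library size. Its V0 part, in the membrane, had 6 tested genes with a median of 0.09, which turned to -0.10 without young 4.

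Atp6v1f and Atp6v1g1, for the F and G subunits, had the highest levels per kb of the pump, 306 ± 29.1 CPM per kb in aged and 369 ± 117 CPM per kb in young cells for Atp6v1f, and 209 ± 37.7 CPM per kb in aged and 268 ± 121 CPM per kb in young cells for Atp6v1g1 (SD, n = 3 each). Both had their highest value in young 4. Atp6v1g1 had 181, 259 and 242 CPM in aged 1 to aged 3, against 444, 218 and 214 CPM in young 4 to young 6. Its brain-enriched relative Atp6v1g2 had 16.4, 17.9 and 19.9 CPM in aged 1 to aged 3, against 15.3, 14.2 and 16.0 CPM in young 4 to young 6, without overlap but with a fold of only 1.19 (95% interval 0.885 to 1.61). Atp6v1g2 shares 2053 bases with Nfkbil1 on the other strand, which had 114 to 590 counts a library.

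Atp6v1a, the catalytic A subunit, had 146, 133 and 143 CPM in aged 1 to aged 3, against 93.9, 120 and 110 CPM in young 4 to young 6. All aged libraries lay above the young ones, and the fold was 1.30 with an edgeR adjusted p of 0.191. Atp6v1c1, for the C subunit, overlapped, with 111 to 146 CPM in aged libraries, against 265 CPM in young 4 and 136 and 139 CPM in young 5 and young 6. The remaining V1 genes, Atp6v1b2, Atp6v1d, Atp6v1e1 and Atp6v1h, overlapped too.

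In V0, Atp6v0a1 had the largest fold. This gene for an a subunit, the part that helps place the pump in a given membrane, had 35.3, 22.9 and 34.3 CPM in aged 1 to aged 3, against 9.14, 19.2 and 19.6 CPM in young 4 to young 6. The groups did not overlap, and young 4 was far below the rest. The fold was 1.92 (95% interval 1.11 to 3.31), with an edgeR adjusted p of 0.143.

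Atp6v0a2, another a subunit, had 86.8, 57.6 and 65.6 CPM in aged 1 to aged 3, against 45.6, 72.2 and 84.7 CPM in young 4 to young 6, and overlapped. Of the summed level per kb of all a subunit genes, Tcirg1 included, Atp6v0a1 made up 10.2%, 12.0% and 15.7% in aged 1 to aged 3, against 8.48%, 8.85% and 8.33% in young 4 to young 6. Every aged library was above every young one in this share. Tcirg1, the a3 subunit gene, held the greatest share in each library, 56.4% to 66.2% in aged and 52.0% to 60.1% in young libraries.

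Atp6v0b and Atp6v0e, for further membrane subunits, did not pass, and each had its highest value in young 4. Atp6v0d1, for the d subunit, had 138 to 145 CPM in aged and 114 to 141 CPM in young libraries. The tissue-restricted subunit genes Atp6v0a4, Atp6v0d2, Atp6v0e2, Atp6v1b1, Atp6v1c2, Atp6v1e2 and Atp6v1g3 had 0 to 10 counts a library and were not tested. Among them Atp6v0e2 had 7, 10 and 8 counts in aged 1 to aged 3, against 0, 2 and 2 counts in young 4 to young 6.

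**Figure D3:**
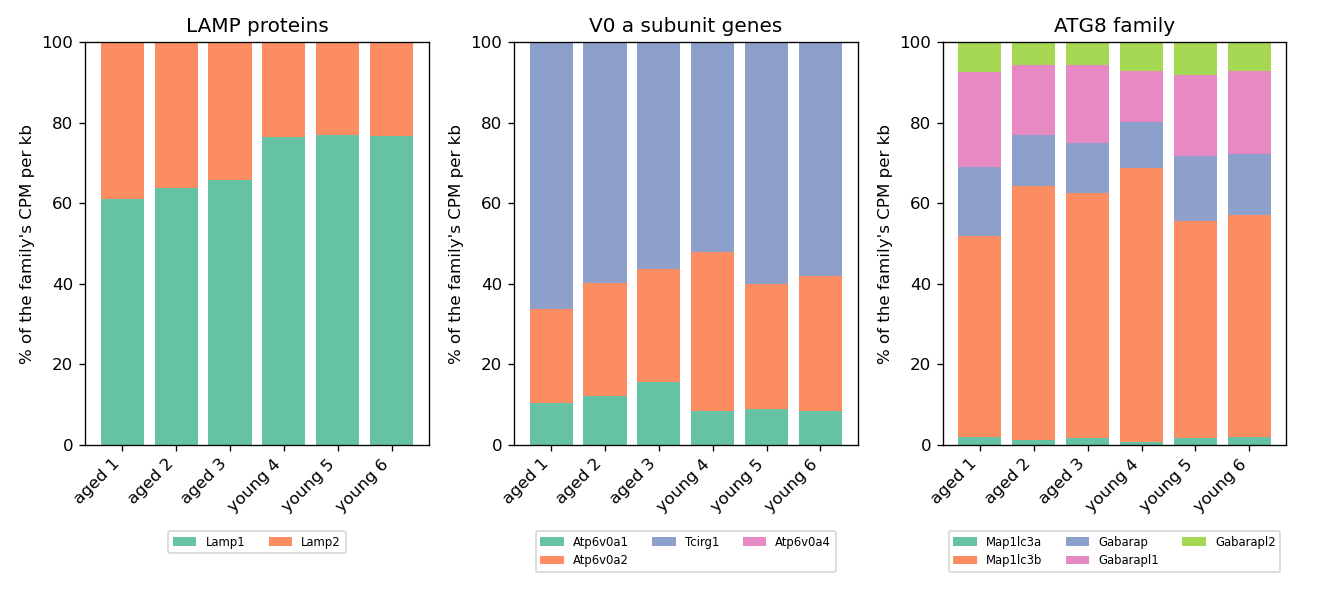
Share of each gene in the summed CPM per kb of its family (vertical axis, %), by library, for LAMP1 and LAMP2, the a subunits of the V-ATPase and the ATG8 family. The Lamp2 share is 34.1% to 39.0% in aged and 23.1% to 23.5% in young libraries, and that of Map1lc3b varies within both groups.

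Of 25 autophagy genes tested 0 were called in either direction. In a group this small that is near the 4.26% higher and 1.50% lower of all genes. Of the 9 genes for initiation and membrane growth, 4 lay above the young libraries in each aged library (44.4%, against 19.0% of all genes tested) and 2 below (22.2%, near the 17.6% of all genes). Ulk1, the kinase that starts autophagy, had 20.9, 18.7 and 21.3 CPM in aged 1 to aged 3, against 12.6, 12.5 and 11.6 CPM in young 4 to young 6. The groups lay well apart and each was tight. The fold was 1.66 (95% interval 1.24 to 2.21), with an edgeR adjusted p of 0.0600. It passed with upper-quartile scaling (0.0448), while with the GC and length trend removed its log2 fold change was 0.18 and its adjusted p 0.696.

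Becn1, which encodes Beclin 1 of the lipid kinase complex, had 141, 168 and 161 CPM in aged 1 to aged 3, against 215, 171 and 180 CPM in young 4 to young 6. All aged libraries lay below all young ones, but by little, with a fold of 0.830 (95% interval 0.632 to 1.09). Atg101, a partner of ULK1, had 78.6 to 82.7 CPM in aged and 83.1 to 89.5 CPM in young libraries, also without overlap. Its fold of 0.944 had a 95% interval of 0.756 to 1.18.

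Atg9a, a lipid scramblase on the vesicles that seed the membrane, had 59.5, 43.1 and 47.0 CPM in aged 1 to aged 3, against 36.7, 32.6 and 35.2 CPM in young 4 to young 6, without overlap. Its edgeR adjusted p was 0.133. Its relative Atg9b was low, at 2.32 to 4.18 CPM in aged and 2.59 to 3.73 CPM in young libraries, and overlapped. The lipid transfer gene Atg2a had 35.6, 15.3 and 17.6 CPM in aged 1 to aged 3, against 9.22, 13.0 and 14.4 CPM in young 4 to young 6, so that aged 1 alone was far above the rest, while Atg2b overlapped, with 46.2 to 54.1 CPM in aged and 41.9 to 74.5 CPM in young libraries. Atg14, which directs the Beclin 1 complex to autophagy, lay above the young libraries in each aged library, and Atg13 overlapped.

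The 11 conjugation genes had a median log2 fold change of 0.01, or -0.02 with DESeq2's size factors. Atg7, the enzyme that activates both ubiquitin-like proteins of the pathway and without which mouse HSCs are known to fail, had 73.3, 57.8 and 69.3 CPM in aged 1 to aged 3, against 25.4, 47.9 and 53.0 CPM in young 4 to young 6. The groups did not overlap, young 4 was lowest, and the edgeR adjusted p was 0.201. Atg3, the next enzyme toward ATG8 lipidation, had 62.4, 77.2 and 74.1 CPM in aged 1 to aged 3, against 116, 83.7 and 87.8 CPM in young 4 to young 6. Its aged libraries all lay below the young ones, at a fold of 0.742 (95% interval 0.547 to 1.01) and an edgeR adjusted p of 0.209.

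Among the ATG4 proteases, which trim ATG8 proteins, Atg4c had 41.5, 41.1 and 49.6 CPM in aged 1 to aged 3, against 33.1, 34.3 and 30.2 CPM in young 4 to young 6, without overlap and with an edgeR adjusted p of 0.153. Atg4b and Atg4d overlapped. The row named Atg4a lies on chr3:103643953-103646068, an interval that RefSeq's GRCm38.p6 table gives to the pseudogene Atg4a-ps, so its 0.863 to 1.35 CPM in aged and 0.921 to 2.04 CPM in young libraries are counts of that interval. Atg5 and Atg12, which are joined to each other, had the highest levels per kb of the conjugation genes. Both overlapped, as did Atg10, Atg16l1 and Atg16l2.

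The ATG8 proteins are attached to the growing membrane and hold cargo. Map1lc3b, the usual LC3 marker of autophagy, had the highest level per kb of all members, 509 ± 143 CPM per kb in aged and 455 ± 194 CPM per kb in young cells (SD, n = 3 each). It had 586, 1022 and 998 CPM in aged 1 to aged 3, against 1159, 567 and 607 CPM in young 4 to young 6. Young 4 was the highest library and aged 1 lay with young 5 and young 6, so the spread within each group exceeded the difference between them.

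Gabarapl1 had 286, 292 and 330 CPM in aged 1 to aged 3, against 224, 220 and 234 CPM in young 4 to young 6. The groups did not overlap, and the fold was 1.34 (95% interval 1.04 to 1.72) with an edgeR adjusted p of 0.151. Gabarap had 132 to 133 CPM in aged and 110 to 128 CPM in young libraries, a fold of 1.14. Map1lc3a was low, with 10.7 to 17.0 CPM in aged and 5.49 to 12.8 CPM in young libraries, which overlap.

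Sqstm1, the p62 receptor that carries ubiquitin-tagged cargo into the autophagosome, had 208, 146 and 172 CPM in aged 1 to aged 3, against 60.8, 129 and 136 CPM in young 4 to young 6. There was no overlap, but aged 2 was close to young 6. The fold was 1.61 (95% interval 0.959 to 2.72), with an edgeR adjusted p of 0.226.

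The transcription factors had the largest standard errors of their log2 fold changes among the tested members, 0.56 for Tfe3 and 0.55 for Tfeb. Tfe3 had 32.6, 9.03 and 14.8 CPM in aged 1 to aged 3, against 5.33, 16.4 and 14.1 CPM in young 4 to young 6. Tfeb was lower, with 4.27, 1.60 and 2.92 CPM in aged 1 to aged 3, against 1.27, 4.33 and 4.91 CPM in young 4 to young 6. Both overlapped, and both had their highest aged value in aged 1 and their lowest young value in young 4. The 95% interval of the fold ran from 0.626 to 3.91 for Tfe3 and from 0.337 to 2.02 for Tfeb, so these counts do not tell a 2-fold change in level from none.

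**Figure D4:**
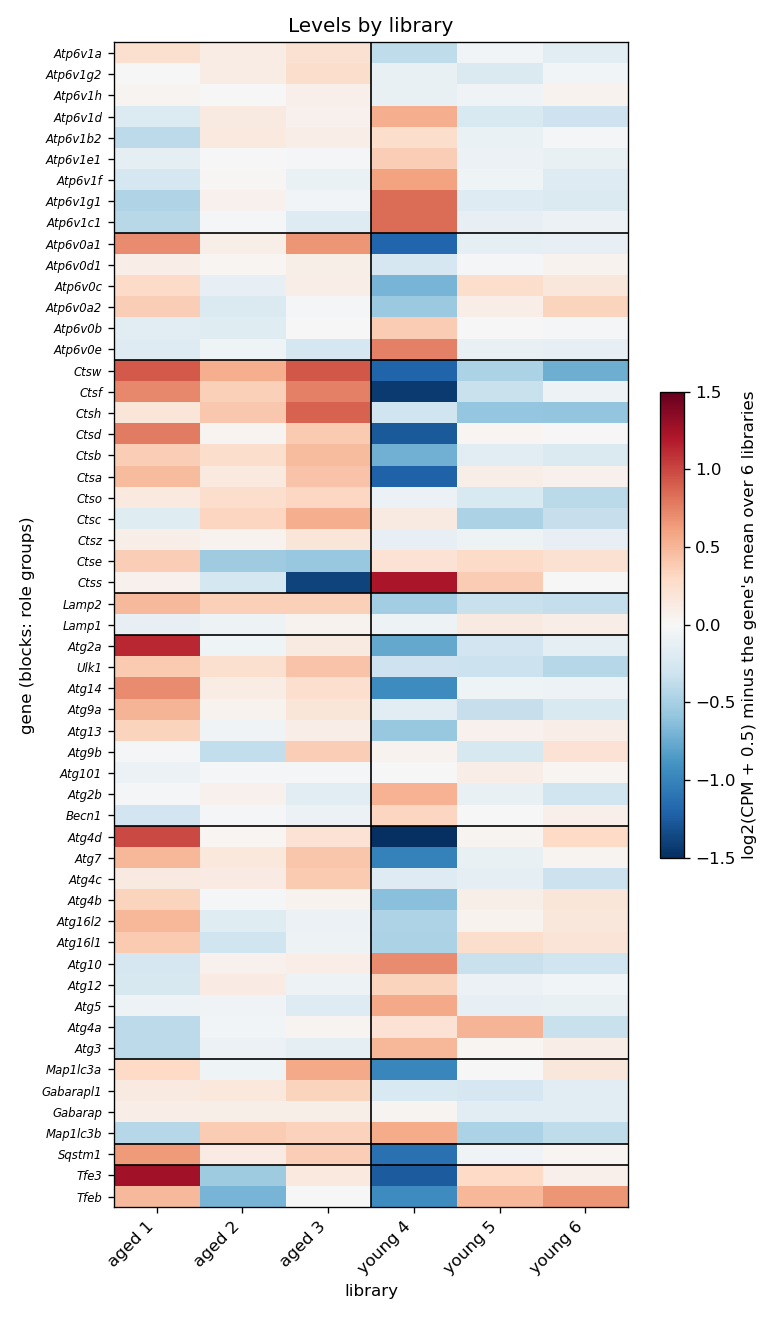
Log2(CPM + 0.5) of each tested member minus its mean over the 6 libraries (colour, cut at 1.5 in either direction), with genes in rows by role and libraries in columns. Young 4 is the lowest library for 24 members and the highest for 16, while Lamp2, Ctsw and Ulk1 are red in all 3 aged and blue in all 3 young libraries.

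Young 4 was at the edge of the range for most members, as it was for most genes. It was the lowest of the 6 libraries for 24 of the 55 (43.6%, against 35.2% of all genes tested) and the highest for 16 (29.1%, against 35.5%). Its distance from young 5 and young 6 varied with the GC content of the transcript, with a Spearman's rho of -0.48 across the 55 members and -0.45 across 13148 genes, all from the same libraries. In the 28 members of higher GC content (50.4% to 63.2%) the median distance was -0.41 on the log2 scale, and their median log2 fold change with age was 0.25. In the 27 of lower GC content (37.6% to 50.3%) these medians were 0.29 and -0.05. With young 4 left out, 5 members, Ctsb, Ctsf, Ctsh, Ctsw and Lamp2, were called higher, and 0 lower, and the median log2 fold change of the cathepsins was 0.53, against 0.60 with all libraries. That is 9.09% of the members, against 4.93% of all genes in that fit. With any other library left out, 0 members were called higher, against 1.79% of all genes with aged 1 out, 0.905% with aged 2 out, 0.601% with aged 3 out, 0.517% with young 5 out and 0.605% with young 6 out.

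**Figure D5:**
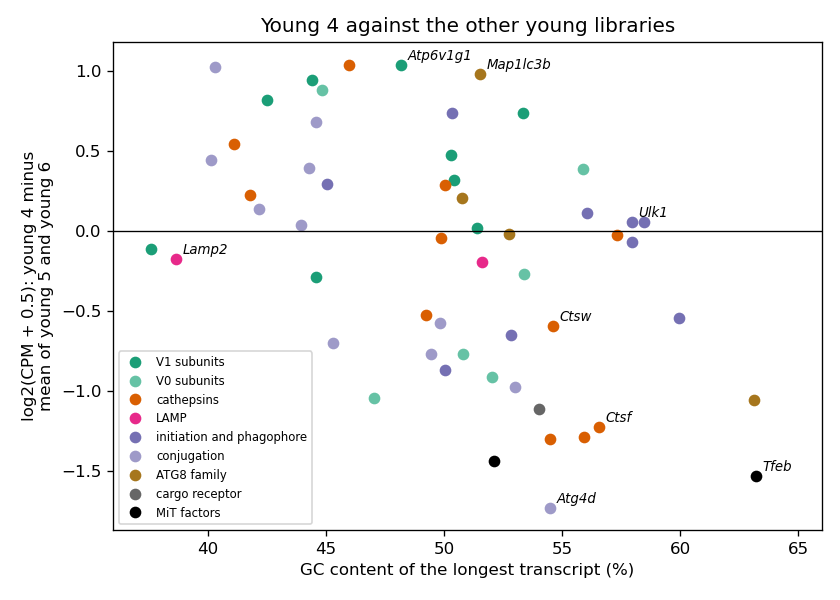
Distance of young 4 from the mean of young 5 and young 6 on the log2(CPM + 0.5) scale (vertical axis) against the GC content of the longest transcript (horizontal axis, %), for the 55 tested members coloured by role. The points fall to the right (rho -0.48), with Lamp2 at -0.17, Ctsw at -0.60 and Atg4d lowest at -1.73.

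Lysosome and autophagy genes outside the naming rule were seldom called either. Of 176 such genes in 7 lists, 171 were tested and 4 were called higher (2.34%, against 4.26% of all genes tested), with 0 lower. Their median log2 fold change was 0.22. Among the 48 hydrolases and cofactors 38 had folds above 1, with a median log2 fold change of 0.32. All aged libraries lay above all young ones for 14 (29.2%, against 19.0% of all genes tested) and below for 0 (against 17.6%). Young 4 was the lowest library for 66.7% of them, against 35.2% of all genes. None of the 48 was called, and Cpq, a peptidase, with an edgeR adjusted p of 0.0657, and Gnptg, of the mannose 6-phosphate tagging enzyme, with 0.0992, came closest. Neither were the 17 genes for initiation, where Wipi1 had an edgeR adjusted p of 0.0842 and Vmp1 of 0.225, or the 15 for cargo and mitophagy, where Park2 had 0.101 and Calcoco1 0.179.

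Of 31 lysosome membrane genes Mcoln2, a cation channel, was called, with 52.9, 54.0 and 63.8 CPM in aged 1 to aged 3, against 30.9, 27.0 and 26.4 CPM in young 4 to young 6. The groups did not overlap, and the fold was 2.02 with an edgeR adjusted p of 0.0229. Of 26 genes for fusion and transport Tecpr1, which joins autophagosomes to lysosomes, was called, with 38.4, 20.8 and 24.7 CPM in aged 1 to aged 3, against 5.49, 10.8 and 10.3 CPM in young 4 to young 6, a fold of 3.15 and an edgeR adjusted p of 0.0422.

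Of 8 protease inhibitors Serpinb6a was called, with 50.3, 52.1 and 50.6 CPM in aged 1 to aged 3, against 34.2, 27.0 and 24.9 CPM in young 4 to young 6, a fold of 1.78 and an edgeR adjusted p of 0.0422. Of 26 genes for TFEB relatives and nutrient sensing Rragd, a GTPase that brings mTORC1 to the lysosome, was called at a low level. It had 0.959 to 1.86 CPM in aged and 0.149 to 0.318 CPM in young libraries. The fold was 5.70, with an edgeR adjusted p of 0.0382. The value of young 5 was 3 counts, so the size of this fold rests on few young counts. Rragd was not tested in the fit that asked for 5 CPM or more in 3 libraries. Of these 4 calls, that of Mcoln2 alone held with aged 1 out (edgeR adjusted p 0.0496), and all 4 held with young 4 out. With aged 2, aged 3, young 5 or young 6 out all 4 were lost, at edgeR adjusted p-values from 0.0801 (Mcoln2, aged 2 out) to 0.152 (Serpinb6a, aged 3 out). Tecpr1 also lost its call with no scaling beyond library size (0.0666) and at 5 CPM or more in 3 libraries (0.0506), Serpinb6a with no filter on low counts (0.0516), and Rragd with both young 4 and aged 2 out (0.0635).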

How the data were processed

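Per the labels' protocols, libraries were SMART-Seq v4 from total RNA, read once for 51 cycles on an Illumina sequencer. The kit marks no strand, so overlapping genes on opposite strands cannot be told apart. The authors' table holds unscaled read counts for each gene, deposited with its coordinates and length. Trimmomatic, STAR 2.6.0, HTSeq 0.11.1, edgeR and mm10 are named, per the submitters' processing notes. How reads were assigned to genes is not given in the sources used here.

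Groups came from the sample titles. All 6 libraries entered 1 fit with age as its term in edgeR 4.0.16 (R 4.3.3): filterByExpr, TMM scaling, glmQLFit and glmQLFTest. P-values were adjusted by Benjamini-Hochberg across the 13413 genes, at 0.05. A call means an adjusted p under it. CPM are TMM-scaled, and CPM per kb uses the deposited lengths. Folds are aged over young, with 95% intervals from the fit. The fit was tested on simulated data of 3 against 3 libraries. It called 10 of 100 genes changed 2-fold, 78 of 100 changed 4-fold and 7 of 13213 unchanged. Most 2-fold changes were thus missed. PCR copies are not independent molecules, so limits from counts cover counting error only.

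Alternatives were other scalings, filters, DESeq2 1.42.0, limma-voom (limma 3.58.1) with and without quality weights, a GC and length trend removed by splines, genes above 1% of a library removed, and libraries left out. GC content was known for 98.02% of the genes tested. Members and lists were chosen with earlier results of these data known. Named members are the called ones and, in each role, the 3 with the smallest p, the 2 highest per kb, and paralogs. Others were added after their values were seen.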

Additional observations from a re-analysis of the deposited data

How the results depend on the processing

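Lamp2 and Ctsw stayed called with every other scaling and filter, DESeq2 and limma-voom. Lamp2 lost its call with the GC and length trend removed (adjusted p 0.0652), and both lost theirs with any of the other 5 libraries than young 4 left out. Members called higher numbered 2, against 4 with upper-quartile scaling, 7 with DESeq2 (adding Ctsb, Ctsf, Ctsh, Gabarapl1 and Ulk1) and 14 with limma-voom quality weights, and from 0 to 5 with a library left out. Members called lower numbered 0, and 2 with quality weights (Ctse and Ctss). Of other pathway genes 4 were called, of 171 tested, and from 0 to 6 with a library left out. DESeq2 called 12 of them, all higher, where 9.36% of all genes were called higher. Quality weights called 35, of which 30 higher and 5 lower, where 17.3% of all genes were called higher and 13.2% lower. Over all genes 772 were called, against 443 at 5 CPM or more in 3 libraries, 1365 with the GC and length trend removed, 2181 with DESeq2 and 4094 with quality weights, and from 74 to 1029 with a library left out. With the GC and length trend removed, 50.3% of all calls were higher in aged cells, against 74.0%. Without scaling beyond library size the median log2 fold change of all genes was 0.20, against 0.04. The cause of these differences was not tested. CACGTG stood in 22.2% of members' promoters, TCACGTGA in 11.1% and the full CLEAR element in 0. Of 932 member values under 17 alternatives, 66, from 22 members, had the other sign, and 0 of these were called. The 95% interval of Tfeb, at a few CPM, reached past 2-fold in either direction. No paired analysis was possible because the replicate numbers of aged (1 to 3) and young libraries (4 to 6) share none.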
